A study of Mus musculus with 18 samples.

Results

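The regions described here are the 47 GATA6 binding regions that lay at the loci of Nanog, Esrrb and Tfcp2l1, out of 42403 GATA6 binding regions in the deposited table. A region was taken when its GATA6 summit, the base of highest signal, fell inside the gene body or within 100 kb on either side of it. By this rule 22 regions belonged to Nanog (chr6:122607489-122814633, mm10), 13 to Esrrb (chr12:86261117-86621628) and 12 to Tfcp2l1 (chr1:118527945-118785168). The cells were mouse embryonic stem (ES) cells of the KH2 line, a C57BL/6 x 129/Sv line, carrying a doxycycline (Dox)-inducible cassette that encodes HA-tagged GATA6. They were grown in serum and LIF on inactivated fibroblast feeders, and 2 independent clones had been selected, so untreated and treated cells share the cassette. The series holds 18 MNase-seq libraries in 6 groups of 3, untreated cells (d0) and cells given Dox for 8, 16, 24, 48 and 96 h. None of the columns of the table used here holds a value of these libraries, so nucleosome signal was not analysed here. The values below are the study's own ChIP-seq and ATAC-seq signals over the same Dox time course and in XEN cells (extraembryonic endoderm stem cells), listed once per region and time point.

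Nanog, Esrrb and Tfcp2l1 encode transcription factors of the naive pluripotency network, which keeps ES cells undifferentiated together with OCT4 and SOX2. GATA6 is a zinc-finger factor that binds GATA motifs and drives cells of the early embryo into the primitive endoderm, where it acts with SOX17, while the pluripotency network is switched off. The comparison therefore asked where GATA6 sat at 3 genes of the network that it opposes, for how long, and what happened to accessibility and to OCT4, SOX2, ESRRB and SOX17 at the same places. The 3 loci are not only those genes: the Nanog window also holds Dppa3, another gene of naive ES cells, and Slc2a3, which encodes a glucose transporter, and the upstream part of the Tfcp2l1 window runs into Clasp1.

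A signal below is the deposited number for a region, which counts reads over the whole region after correction for library size and carries no named unit, and "per kb" means that it was divided by the region's width. Each is the authors' value for a time point with replicates pooled. The table gives neither the spread between replicates nor a read depth, so no difference between time points was tested, and words such as higher and lower describe the listed values only. Regions are named by the distance of their summit from the start of the gene, so that the Nanog +69.9 kb region lies 69.9 kb downstream of it.

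The sequences that show what GATA6 met at these genes are those at the summit nearest to each gene start and at the summit with the highest OCT4 signal per kb at d0, with the Esrrb +119.7 kb region added, after the values had been seen, because it held the most GATA6 motifs of the 47 (18). They are from RefSeq GRCm38 (mm10), plus strand, 5′ to 3′, and span chr6:122707247-122707488 at Nanog, chr12:86364592-86364891, chr12:86480633-86480932 and chr12:86498837-86499136 at Esrrb, and chr1:118626462-118626761 and chr1:118642702-118643001 at Tfcp2l1. Capitals mark the best deposited match of the GATA6, OCT4:SOX2 or SOX17 motif that lies within the stretch. At Nanog one region met both rules, with its summit 25 bp inside the gene, and the stretch stops at the last base before the annotated start.
Nanog +0.0 kb: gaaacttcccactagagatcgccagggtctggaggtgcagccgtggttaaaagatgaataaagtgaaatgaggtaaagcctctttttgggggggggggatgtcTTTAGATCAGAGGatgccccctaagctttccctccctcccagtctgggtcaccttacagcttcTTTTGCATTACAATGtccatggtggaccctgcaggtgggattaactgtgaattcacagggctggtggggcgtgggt
Esrrb +3.6 kb: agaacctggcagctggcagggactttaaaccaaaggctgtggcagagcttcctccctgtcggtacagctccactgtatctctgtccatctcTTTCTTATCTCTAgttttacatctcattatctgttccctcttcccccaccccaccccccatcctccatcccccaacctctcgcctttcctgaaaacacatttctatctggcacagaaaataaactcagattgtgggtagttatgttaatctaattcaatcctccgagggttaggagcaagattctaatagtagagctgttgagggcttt
Esrrb +119.7 kb: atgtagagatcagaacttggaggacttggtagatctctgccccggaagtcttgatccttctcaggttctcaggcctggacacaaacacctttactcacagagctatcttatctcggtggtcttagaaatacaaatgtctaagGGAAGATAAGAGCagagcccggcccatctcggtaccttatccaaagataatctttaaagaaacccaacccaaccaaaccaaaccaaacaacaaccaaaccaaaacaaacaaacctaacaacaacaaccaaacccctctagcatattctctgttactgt
Esrrb +137.9 kb: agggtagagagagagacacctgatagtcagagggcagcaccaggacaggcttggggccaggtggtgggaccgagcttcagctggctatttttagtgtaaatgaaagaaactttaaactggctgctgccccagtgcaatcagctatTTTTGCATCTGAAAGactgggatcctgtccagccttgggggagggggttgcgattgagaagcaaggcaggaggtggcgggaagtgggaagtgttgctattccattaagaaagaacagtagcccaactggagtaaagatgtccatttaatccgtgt
Tfcp2l1 -1.3 kb: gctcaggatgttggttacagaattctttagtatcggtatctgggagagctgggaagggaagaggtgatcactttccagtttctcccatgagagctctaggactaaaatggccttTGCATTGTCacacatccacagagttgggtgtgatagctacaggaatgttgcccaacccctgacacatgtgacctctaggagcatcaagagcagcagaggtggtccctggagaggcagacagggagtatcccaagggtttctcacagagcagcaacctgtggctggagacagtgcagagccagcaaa
Tfcp2l1 +14.9 kb: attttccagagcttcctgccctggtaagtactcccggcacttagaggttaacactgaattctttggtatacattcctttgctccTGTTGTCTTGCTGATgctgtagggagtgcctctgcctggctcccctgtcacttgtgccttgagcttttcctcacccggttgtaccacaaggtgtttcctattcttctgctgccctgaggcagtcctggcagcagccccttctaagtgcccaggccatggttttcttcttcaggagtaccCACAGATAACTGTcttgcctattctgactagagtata
At Nanog +0.0 kb the first capitals are the GATA6 match, with a score of 7.04, and the second are the OCT4:SOX2 match on the minus strand, with a score of 17.7, the highest of the 47 regions. At Esrrb +3.6 kb the GATA6 match (14.9) read on the minus strand is the highest of the 47. At Esrrb +119.7 kb the capitals are its GATA6 match (14.2). At Esrrb +137.9 kb the capitals are an OCT4:SOX2 match (16.0), and at Tfcp2l1 -1.3 kb they are a SOX17 match. Neither region has a deposited GATA6 match, that is one listed by the authors' motif scan, although both stretches contain the bases gata. At Tfcp2l1 +14.9 kb the first capitals are the OCT4:SOX2 match (8.66) and the second the GATA6 match (7.02).

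The regions were dense at Nanog, with 106 per Mb of window, against 46.7 at Tfcp2l1 and 36.1 at Esrrb. All 13 Esrrb regions lay inside the gene body. At Nanog 7 lay upstream, 1 inside and 14 downstream of the gene, and at Tfcp2l1 the numbers were 3, 5 and 4. By summit, 27 of the 47 were intronic, 11 intergenic and 1 exonic (Tfcp2l1 +50.1 kb), and 8 lay within 1 kb of a transcript start. The median width was 707 bp, against 524 bp over all regions, so counts of called peaks in these regions were made over wider stretches than usual.

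Most GATA6 binding at these loci was early, and 25 of the 47 regions were classed as Transient. The authors sorted all regions by k-means clustering of their GATA6 signal into Early&Constant, Late and Transient, that is bound early and kept, gained late, or bound early and lost. The Transient share was 53.2% (95% exact binomial interval, counting error only, 38.1 to 67.9), where the class held 38.4% of all regions. Early&Constant held 16, or 34.0% (20.9 to 49.3), beside 28.0% of all regions, and Late held 6, or 12.8% (4.83 to 25.7), beside 33.6%. Among the 16 regions whose width lay in the middle range of all regions (between the quartiles) the shares were 81.2% Transient and 12.5% Early&Constant, so the balance of the classes moved with width. Esrrb stood at one end with 10 Transient, 3 Early&Constant and no Late region, Nanog had 10, 10 and 2, and Tfcp2l1 had 5, 3 and 4.

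The GATA6 signal itself, from which the classes are made, was lowest relative to 8 h at Esrrb. From 8 to 96 h it was lower at 38 of the 47 regions, beside 50.3% of all regions, and the median log2 ratio was -1.02 (exact interval of the median -1.34 to -0.46) beside -0.02. The log2 ratios here and below carry a small added constant, the 5th percentile of each assay's values. The median was -1.54 at Esrrb, where all 13 regions were lower, -0.95 at Tfcp2l1 and -0.78 at Nanog. The signal was highest at 8 h in 21 regions (44.7%, beside 32.8% of all regions), at 16 h in 12 (25.5%, beside 17.7%), at 24 h in 5 (Nanog -86.0, -64.0, -34.5 and +78.8 kb and Tfcp2l1 +139.9 kb, 10.6%, beside 6.72%) and at 96 h in 8 (17.0%, beside 37.2%). It was highest at 48 h only at Nanog -4.9 kb (2.13%, beside 4.5%). No Esrrb region was highest later than 16 h. In the 25 Transient regions the GATA6 signal at 96 h was still above d0 at 18 (72.0%, beside 65.7% of all Transient regions). Their median log2 ratio of 96 h over d0 was 0.28 (0.18 to 0.74), beside 0.34 for the class.

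**Figure D1:**
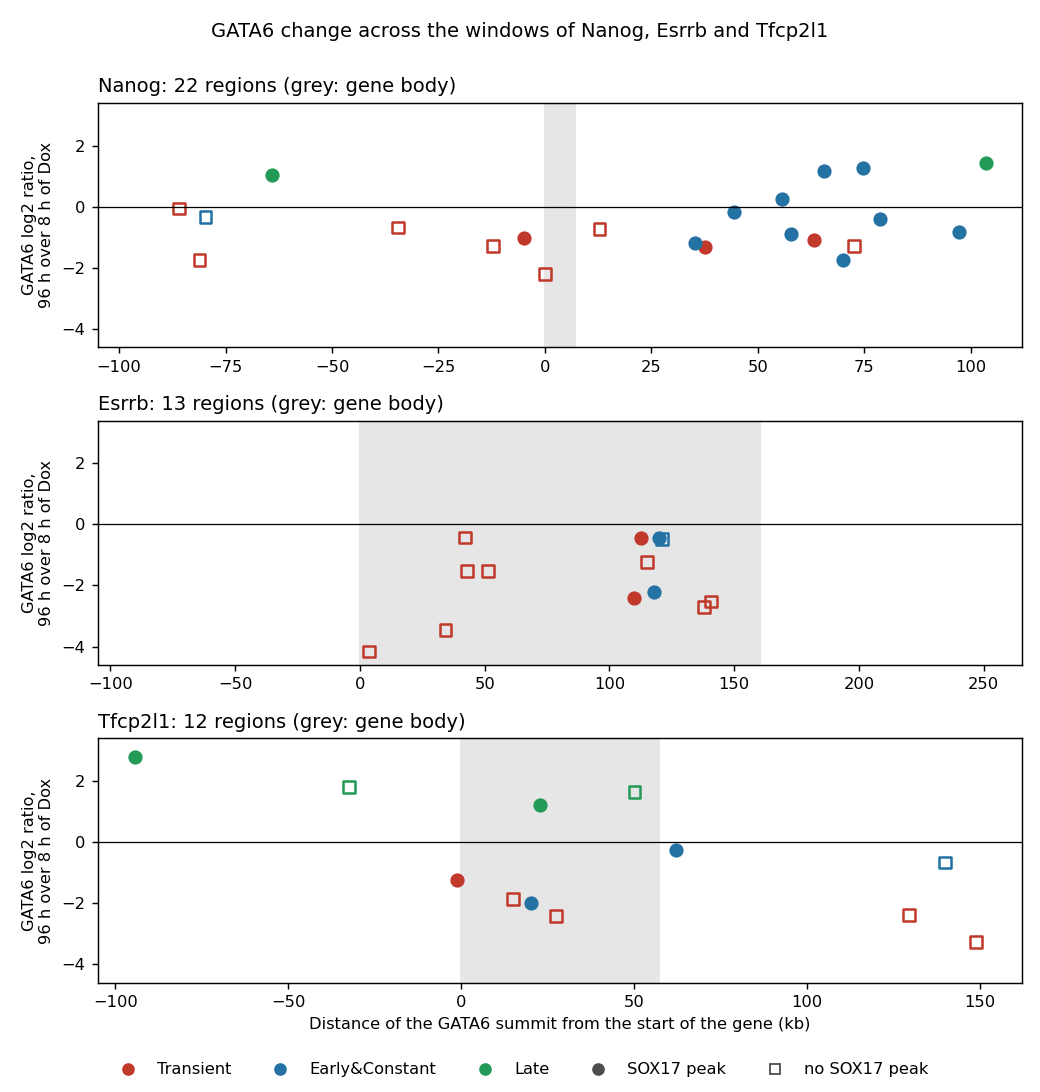
Each point is 1 of the 47 regions, placed by the distance of its GATA6 summit from the start of the gene (kb) and by the log2 ratio of GATA6 signal at 96 h over 8 h of Dox, coloured by class, filled where a SOX17 peak was called. All 13 Esrrb points lie below 0, while the Nanog window has blue and filled points mainly beyond +35.2 kb.

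**Figure D2:**
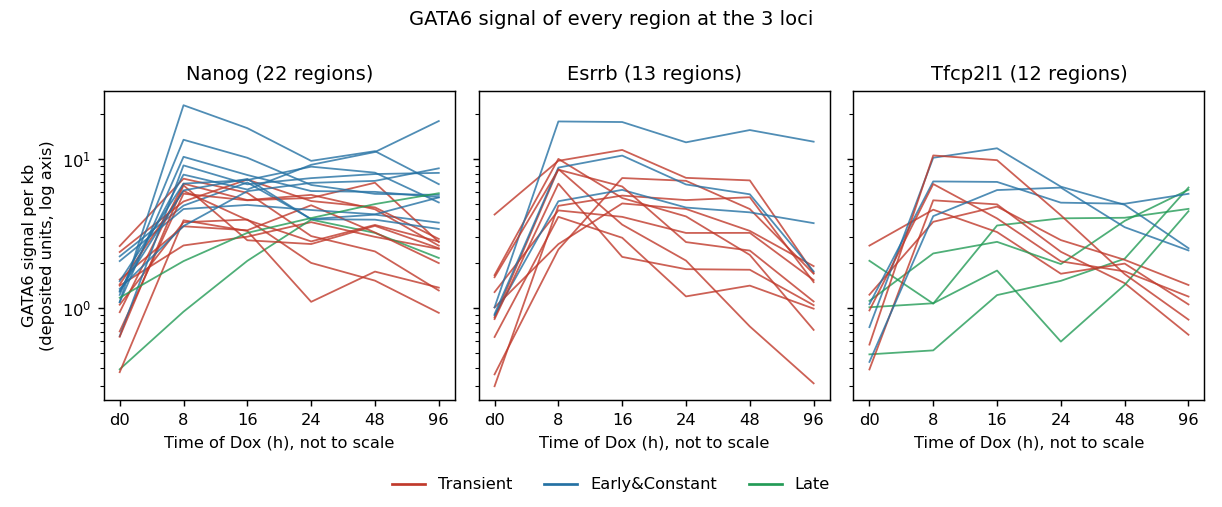
GATA6 signal per kb (log axis) of every region over d0 and 8 to 96 h of Dox, 1 line per region and 1 panel per locus. Most lines are highest at 8 or 16 h, and the 4 green Late lines of Tfcp2l1 end between 4.48 and 6.45 per kb, above all its Transient lines.

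Most of these regions were already open or partly open in untreated cells. On the authors' ATAC-seq classes 15 of 47 were accessible at d0 (31.9%, 19.1 to 47.1), beside 7.43% of all regions, 22 were moderate and 10 were closed (21.3%, 10.7 to 35.7), beside 61.3%. OCT4, SOX2 and ESRRB are grouped below as PTFs, for pluripotency factors. A called peak of at least one of them was present from d0 at 22 (46.8%, 32.1 to 61.9), beside 20.8%. They appeared only after Dox, called ectopic by the authors, at 9 (19.1%, 9.15 to 33.3), beside 16.6%. In the histone classes from public ES cell data 13 regions had a promoter state (27.7%, beside 6.88% of all regions), 12 an active (25.5%, beside 11.2%), 10 a poised (21.3%, beside 14.6%) and 5 a primed enhancer state (10.6%, beside 16.9%). The primed ones were Nanog +12.8, +44.3, +69.9 and +74.8 kb and Tfcp2l1 +27.5 kb. Another 5 had a facultative (10.6%, beside 22.3%) and 2 a constitutive heterochromatin state (4.26%, beside 10.2%), and none of the 47 was unmarked, the state of about 18% of all regions. The constitutive ones were Nanog -64.0 kb and Tfcp2l1 +50.1 kb, and the facultative ones Esrrb +3.6 and +51.3 kb and Tfcp2l1 -94.4, -32.4 and +139.9 kb. In accessibility the loci were alike, with 18 of 22, 10 of 13 and 9 of 12 regions accessible or moderate at Nanog, Esrrb and Tfcp2l1. In histone state they were not, with a promoter state at 8 of 22, 4 of 13 and 1 of 12 and facultative heterochromatin at 0 of 22, 2 of 13 and 3 of 12. Ectopic PTFs were at 5, 3 and 1 of these regions. None of these differences between loci was tested.

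The Nanog window split into stretches with different courses. The 5 regions whose nearest coding transcript start was that of Nanog, from -34.5 to +12.8 kb, were all Transient, and 1 of them had a SOX17 peak. Of the 12 nearest to Slc2a3, from +35.2 to +97.3 kb, 9 were Early&Constant and 11 had a SOX17 peak. The median log2 ratio of GATA6 at 96 h over 8 h was -1.02 at the former (range -2.20 to -0.69) and -0.86 at the latter (-1.74 to 1.26), so their GATA6 ratios overlapped. The levels at 96 h overlapped too, with a higher median near Slc2a3. At that time the GATA6 signal per kb had a median of 2.01 (1.32 to 2.92) near Nanog and 5.55 (2.53 to 18) near Slc2a3. At 8 h the medians were 5.2 (3.55 to 7.4) and 6.85 (3.57 to 23). The regions near Slc2a3 were also wider, with a median of 1040 bp against 437 bp, and the part of width in the classes was not tested. Of the remaining 5 regions 4 were nearest to Dppa3 (2 Transient, 1 Early&Constant and 1 Late) and 1 Late region was nearest to Foxj2. The split depended on how regions were assigned. By the nearest start of a protein-coding gene, rather than of any of its transcripts, Nanog had 8 regions. Of these, 6 were Transient and 2 Early&Constant, and 4 had a SOX17 peak.

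At the Nanog promoter the GATA6 and OCT4 signals were both highest at 8 h. The signals come from whole populations of cells, and whether both factors were bound in the same cells was not tested. Nanog +0.0 kb (chr6:122707247-122707684) had GATA6 signals of 1.14 at d0, 3.23 at 8 h, 2.60 at 16 h, 1.33 at 24 h, 1.05 at 48 h and 0.58 at 96 h. The OCT4 signals were 4.74, 5.47, 4.15, 3.34, 3.39 and 0.61 at the same times. OCT4 was thus at its highest listed value when GATA6 was, and per kb its d0 value (10.8) was above that of 98.8% of all regions. SOX2 went from 5.75 at d0 to 2.10 at 24 h and 0.44 at 96 h, and ESRRB from 3.86 to 0.46 at 96 h. ATAC signals were 0.319, 0.400, 0.247, 0.318, 0.169 and 0.055, with the lowest log2 ratio of 96 h over d0 in the window (-2.17). The input, sheared chromatin without an antibody, was 0.72 at d0 and 0.71 at 96 h, and all 4 factors ended below it. The Nanog -4.9 kb region upstream, an accessible one with PTFs from d0, kept GATA6 (4.10 at 8 h, 4.86 at 48 h) and OCT4 (7.36 at 48 h) longer, and both were lower at 96 h (1.95 and 2.05), when ATAC was 0.537 after 1.76 at 48 h. The Nanog -12.2 kb region had the best GATA6 match of the window (14.3), yet no PTF or SOX17 peak, GATA6 signals of 1.70 at 8 h and 0.60 at 96 h, and ATAC between 0.082 and 0.102 at every time point. A strong match thus lay in a region with little signal.

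In the introns of Slc2a3 the courses were different. Nanog +69.9 kb had the highest GATA6 signal per kb of the window at 8 h (23.0, above 99.9% of all regions), and its signal then went from 30.6 at 8 h to 21.5 at 16 h, 15.1 at 48 h and 9.05 at 96 h. Nanog +65.5 kb, nearby, did the opposite after 16 h, with 7.97 at 8 h, 6.33, 9.27, 11.3 and 18.2 at 96 h, and 26.1 in XEN cells. The same region had the highest log2 ratio of ATAC at 96 h over d0 in the window (1.52), from 0.396 at d0 to 1.63 at 48 h and 1.17 at 96 h. Its SOX17 signal went from 2.33 at d0 to 8.52 at 24 h and 19.8 at 96 h, and OCT4 from 2.25 to 6.86, while ESRRB was at 3.72 and 1.38. Nanog +44.3 kb, closed at d0, had the highest log2 ratio of OCT4 of the 47 (1.97), from 2.56 at d0 to 10.5 at 96 h, with SOX17 at 9.12.

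The other regions of the Nanog window fell between these courses. Beside Dppa3, Nanog -81.1 kb had GATA6 of 2.33 at 8 h and 0.58 at 96 h and OCT4 of 2.48 at d0 and 0.71 at 96 h, a course like that of the Nanog promoter, while Nanog -86.0 kb and -79.7 kb had GATA6 under 2.6 at every time point. Nanog -64.0 kb was highest at 24 h (3.29) and had 1.82 at 96 h. Nearest to Slc2a3, Nanog +63.1 kb, classed Transient, had PTF signals far under d0 at the end, with ESRRB of 12.9 at d0 and 1.21 at 96 h and SOX2 of 10.9 and 2.07. Its GATA6 was 5.53 at 8 h and 2.53 at 96 h. Nanog +57.9 kb, one of the widest (2373 bp), had SOX2 of 24.0 at d0 and 8.77 at 96 h with GATA6 of 24.6 at 8 h and 13.2 at 96 h. Nanog +78.8 kb had ATAC of 0.647 at d0 and 1.19 at 96 h with OCT4 of 4.36 and 4.68, and both were higher between. Nanog +103.5 kb, the late region near Foxj2, had GATA6 of 1.72 at 8 h and 4.91 at 96 h, SOX17 of 1.61 at d0 and 5.06 at 96 h, and ESRRB of 3.91 and 0.85. ESRRB was thus lower at 96 h also where every other factor was higher, and over the window it was below d0 at all 22 regions.

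At Esrrb the regions formed groups along the gene, and GATA6 signal was lower at 96 h than at 8 h in all of them. The Esrrb +3.6 kb region in the first part of the gene had the lowest log2 ratio of GATA6 of the 47 (-4.16), with signals of 8.06 at 8 h, 3.42, 1.96, 0.71 and 0.30 at 96 h, when the input was 0.34. It was closed at d0, carried facultative heterochromatin marks and held the best GATA6 match of all 47, and its ATAC signal stayed between 0.075 and 0.141. Esrrb +34.3 kb followed the same course from 7.85 to 0.56, but its ATAC signal went from 0.431 at d0 and 0.617 at 24 h to 0.096 at 96 h. The highest ATAC ratio of 96 h over d0 at this locus was at Esrrb +42.1 kb, with 0.128 at d0, 0.472 at 48 h and 0.25 at 96 h.

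Regions further into Esrrb included the one with the lowest ATAC ratio of the locus and the one with its highest OCT4 signal per kb at d0. Esrrb +137.9 kb, the region with the highest OCT4 signal per kb at d0 of the locus, had OCT4 signals of 6.38 at d0, 7.66 at 8 h, 3.76, 3.14, 4.20 and 0.80 at 96 h. GATA6 there was 6.01 at 8 h and 0.79 at 96 h, and the region holds no deposited GATA6 match. Esrrb +140.7 kb had the lowest ATAC ratio of the 47 (-2.74), with signals of 0.851, 0.755, 0.608, 0.750, 0.368 and 0.110. ESRRB itself, the product of the gene, was bound there at 17.7 at d0 and 15.9 at 8 h, with 4.70 at 48 h and 0.89 at 96 h, and GATA6 was 6.60 at 8 h and 2.13 at 16 h. Esrrb +109.9 kb, at an internal transcript start, had the highest GATA6 signal of the 47 before Dox (6.70, from 1 preparation), then 18.2 at 16 h and 2.72 at 96 h, with OCT4 at 12.9 at d0 and 2.37 at 96 h. At these 3 regions the input was lower at 96 h too, by log2 ratios between -1.36 and -0.47, and the part of that in these results was not tested.

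A region further upstream in Esrrb still had high GATA6 signal at 96 h. Esrrb +119.7 kb (chr12:86479960-86481406), whose sequence is shown above, had GATA6 signals of 1.47 at d0, 25.9 at 8 h, 25.6, 18.8, 22.7 and 18.9 at 96 h, the highest per kb of the locus at both 8 h (17.9) and 96 h (13.1). Its OCT4 went from 5.25 to 14.4 at 48 h and 7.45 at 96 h, SOX17 from 3.31 to 11.7 and 9.20, and ATAC from 0.563 to 1.58 and 0.899. In XEN cells its GATA6 signal was 10.6 and its ATAC 0.388. The neighbouring Esrrb +121.1 kb region kept 4.75 of 7.94 from 16 h, and Esrrb +117.9 kb, on the other side and also classed Early&Constant, went from 11.3 at 16 h to 1.89 at 96 h with ATAC at 0.796 and 0.217.

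Tfcp2l1 held both regions with low GATA6 signal at 96 h and 4 of the 6 Late regions. Tfcp2l1 -1.3 kb, upstream of the start and accessible at d0, had GATA6 signals of 2.01 at 8 h, 2.54 at 16 h and 0.76 at 96 h, and ATAC of 0.390 at d0 and 0.091 at 96 h. Inside the gene, in an intron, Tfcp2l1 +14.9 kb had the highest OCT4 per kb at d0 (6.89) and the lowest ATAC ratio of the locus (0.435 at d0, 0.088 at 96 h). Its OCT4 signals were 4.27, 5.42, 2.41, 1.24, 3.07 and 0.41, ESRRB went from 9.91 to 0.44, and GATA6 never exceeded 2.84. Tfcp2l1 +20.3 kb, the widest region of the 47 (2617 bp) with a GATA6 match of 14.0, had GATA6 signals of 26.7 at 8 h, 31.0 at 16 h, 17.1, 12.9 and 6.62, and was called Early&Constant with a log2 ratio of -1.99. Tfcp2l1 +148.7 kb had the highest GATA6 per kb of the locus at 8 h (10.6), then 0.84 per kb at 96 h.

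Tfcp2l1 +62.0 kb, downstream of the gene, had GATA6 signal from 8 to 96 h and a SOX17 peak. Its GATA6 signals were 0.98, 6.51, 6.46, 4.69, 4.61 and 5.38, and its SOX17 went from 4.05 at d0 to 8.83 at 48 h and 11.6 at 96 h. ATAC there was 0.684 at d0, 1.58 at 48 h and 0.966 at 96 h, while ESRRB was 3.98 and 0.93. Tfcp2l1 +129.5 kb had ESRRB of 5.96 at d0 and 0.70 at 96 h with GATA6 of 8.04 at 8 h and 1.42 at 96 h.

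The late regions of this window ran the other way. Tfcp2l1 -94.4 kb, inside Clasp1 and closed at d0, had GATA6 signals of 0.16, 0.17, 0.41, 0.51, 0.71 and 2.14, with the highest log2 ratio of 96 h over 8 h of the 47 (2.77). GATA6 values at d0 are whole multiples of 0.163, so its d0 value is the smallest such multiple. The 8 h value is about as large as the added constant (0.163), so this ratio rests on a very low value. ATAC went from 0.025 to 0.151 and SOX17 from 0.24 to 2.61, and the region holds neither a deposited GATA6 nor a deposited SOX17 match. Tfcp2l1 -32.4 kb, +22.9 kb and +50.1 kb, the other late ones, had 2.18, 1.82 and 1.44 at 96 h after 0.51, 0.68 and 0.35 at 8 h. The input at 96 h was between 0.42 and 0.62 in the same 4 regions.

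**Figure D3:**
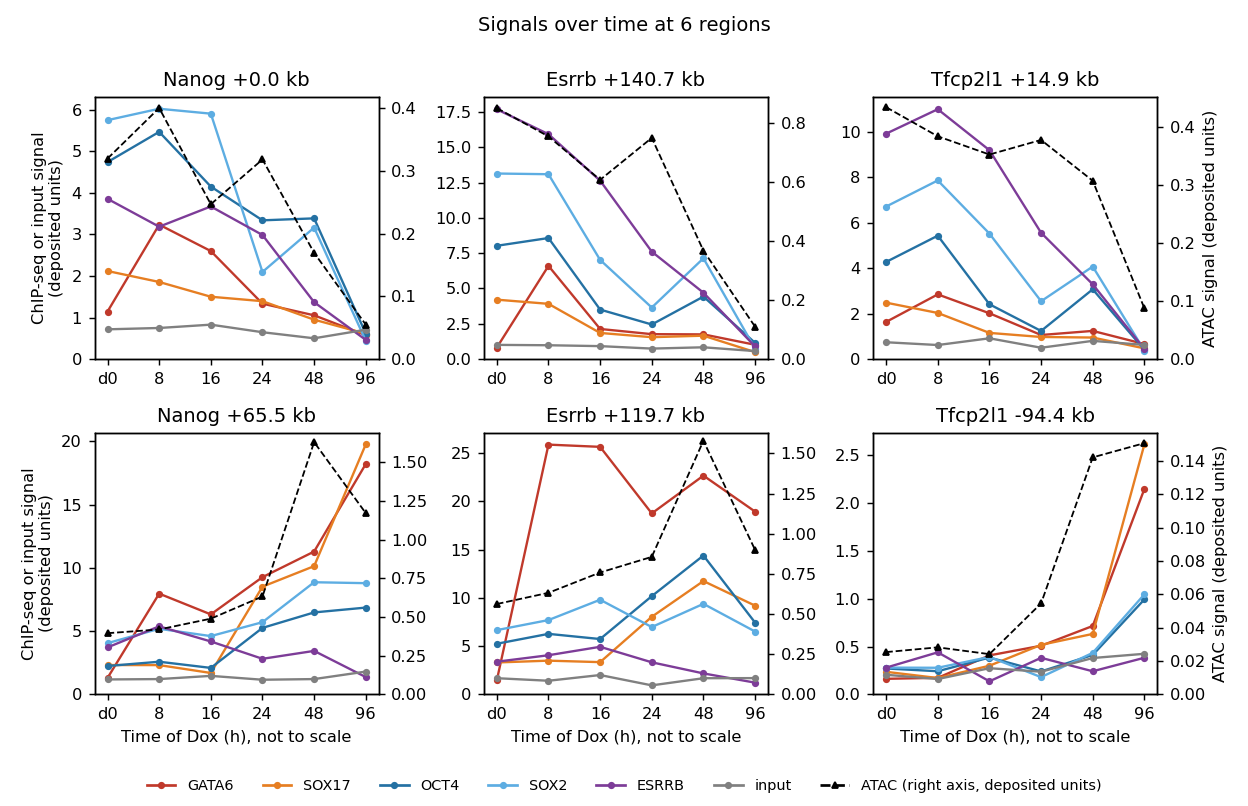
ChIP-seq and input signals (left axis, deposited units) and ATAC signal (dashed, right axis) over d0 and 8 to 96 h of Dox at 6 regions, the one with the lowest ATAC ratio (upper row) and the one with the highest GATA6 signal per kb at 96 h (lower row) of each locus. In the upper row the lines come near the input by 96 h (0.71 at Nanog +0.0 kb, 0.57 at Esrrb +140.7 kb and 0.62 at Tfcp2l1 +14.9 kb), and in the lower row GATA6 and SOX17 end at 18.2 and 19.8, 18.9 and 9.20, and 2.14 and 2.61.

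Accessibility at the 47 regions was highest at 48 h and, in the median, slightly under d0 at 96 h. At 96 h the ATAC signal was below d0 at 28 of 47, beside 29.3% of all regions, with a median log2 ratio of -0.11 (-0.46 to 0.14) beside 0.56. At 48 h only 13 of 47 were below d0, and the median was 0.61 (0.38 to 1.17) beside 0.75. The ATAC signal was highest at 48 h in 28 regions (59.6%), beside 45.0% of all, and in 15 it was above d0 at 48 h and below it at 96 h (31.9%, 19.1 to 47.1), beside 13.7% of all regions. The median over all regions was thus itself above d0 at 96 h. Once each column was divided by its median, which moves the members and all regions together, the median of the members was -0.74.

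OCT4 and SOX2 signals were furthest below d0 at 96 h in the Transient regions, and ESRRB was below d0 in both the Transient and the Early&Constant ones. OCT4 was below d0 at 96 h in 35 of 47 regions, beside 44.5% of all, SOX2 in 37, beside 47.3%, and ESRRB in 43, beside 74.1%. The median log2 ratios were -0.51 (-0.99 to -0.17) for OCT4 beside 0.15, -0.85 (-1.32 to -0.25) for SOX2 beside 0.10, and -1.12 (-1.36 to -0.67) for ESRRB beside -0.40. At 48 h the OCT4 median was 0.38 (0.10 to 0.52), that of SOX2 -0.06 (-0.26 to 0.25) and that of ESRRB -0.60 (-0.77 to -0.21), in the same order as over all regions (0.22, 0.00 and -0.28), and the intervals of OCT4 and SOX2 overlapped. OCT4 was above d0 at 48 h and below it at 96 h in 22 of 47 regions (46.8%, 32.1 to 61.9), beside 16.3% of all. In the 25 Transient regions OCT4 was below d0 at 96 h in all 25 and ATAC in 21, where 82.2% and 63.1% of all Transient regions were. The medians were -1.25 and -0.81, beside -0.80 and -0.25 for all Transient regions. In the 16 Early&Constant regions the medians were -0.11 for OCT4 (10 below d0, beside 33.9% of the class) and 0.13 for ATAC (7 below, beside 12.9%), and the class medians were 0.38 and 0.94, and ESRRB was below d0 in all 16, beside 78.6% of the class. The 6 Late regions were above d0 at 96 h for ATAC, OCT4, SOX2 and SOX17, as were 95.5%, 89.8%, 91.7% and 97.2% of all Late regions, so this is the background of the class.

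The input columns moved with these differences. From d0 to 96 h their median log2 ratio was -0.15 (-0.31 to 0.07) over the 47 regions beside 0.03 over all, -0.47 at Esrrb, 0.01 at Nanog and 0.01 at Tfcp2l1, and -0.31 in the Transient regions. Divided by input, the median log2 ratios were -0.91 for GATA6 (-1.34 to -0.61) and -0.49 for OCT4 (-0.63 to -0.18), an alternative chosen after the data had been seen, and both kept their direction. Over all regions they were -0.25 and 0.11 on the same scale, so for GATA6 the members lay closer to all regions than without the division.

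**Figure D4:**
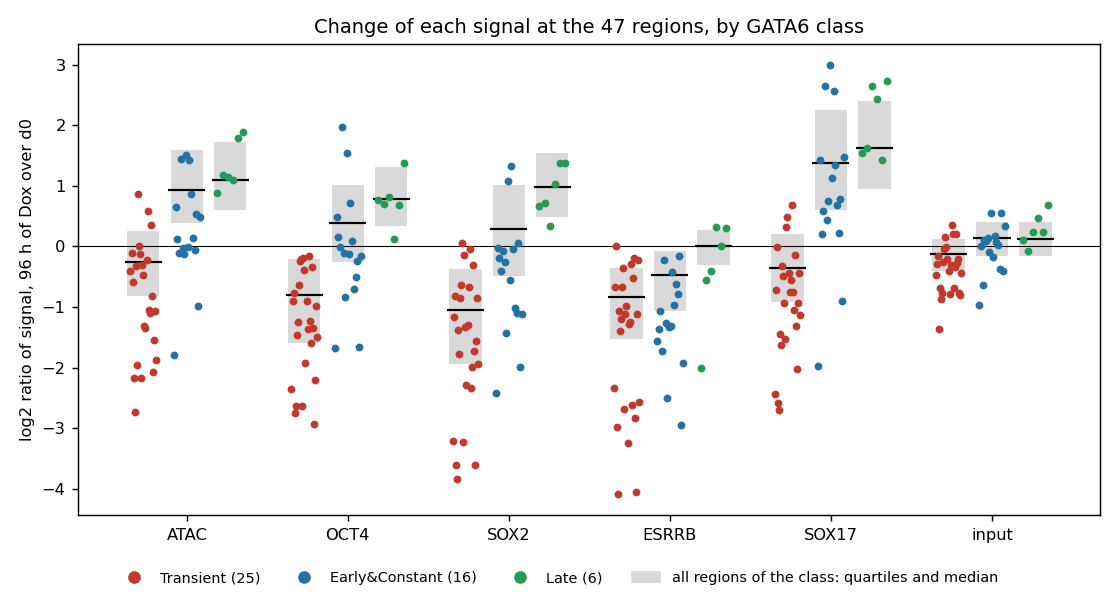
Log2 ratio of each signal at 96 h of Dox over d0 for the 47 regions (points), split by GATA6 class, over the quartiles (grey) and median (black line) of all regions of that class. The 25 red points of OCT4 lie below 0, and the red points of the input lie mostly below 0 as well.

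SOX17 peaks lay mainly in Early&Constant and Late regions, as they did over all regions. A SOX17 peak was called at 23 of the 47 regions (48.9%, 34.1 to 63.9), beside 44.5% of all, which is near the background. The peaks lay at 13 of 16 Early&Constant, 4 of 6 Late and 6 of 25 Transient regions, beside 72.6%, 53.4% and 16.2% of these classes over all regions. Among the 16 regions of middle width 25% had one. Nanog had 14 of 22, Tfcp2l1 5 of 12 and Esrrb 4 of 13. The SOX17 signal was below d0 at 96 h at 24 of 47 regions, beside 29.7%, and at 11 of 13 in Esrrb. The d0 column comes from cells before induction and was higher at the more accessible members. Its median per kb was 3.78 at the 15 accessible ones (2.52 over all accessible regions), 1.78 at the 22 moderate and 0.988 at the 10 closed ones, where the input was at 1.41, 1.19 and 0.836. The part of accessibility in the SOX17 signal was not tested, and the later values stand beside that of d0. At Nanog +57.9 kb the signal was 10.0 at d0, 21.7 at 48 h and 17.0 at 96 h.

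With less OCT4, GATA6 was lowered at several Esrrb regions and raised at several Tfcp2l1 regions. Cells were given siRNAs against Oct4 or control siRNAs with Dox and taken at 48 h, and the authors classed each region by DESeq2. GATA6 was classed as lowered at 6 of the 47 regions (12.8%, 4.83 to 25.7), beside 6.25% of all, and as raised at 3 (6.38%, 1.34 to 17.5), beside 8.57%. Of the 6 lowered regions 5 were in Esrrb and 1 in the Nanog window, and all 3 raised regions were in the Tfcp2l1 window. At Esrrb +43.0 kb GATA6 was 7.48 with control and 2.54 with Oct4 siRNAs, at Esrrb +109.9 kb 14.9 and 6.96, and at Esrrb +42.1 kb 6.24 and 3.11. The other Esrrb ones were +34.3 kb (2.78 and 0.92) and +117.9 kb (5.06 and 2.78). Esrrb +119.7 kb, the region with high GATA6 signal to the end, was at 38.9 and 36.0 and was classed unchanged. At Nanog -64.0 kb, a late region that gained PTFs after Dox, the values were 4.90 and 2.48. The raised ones were Tfcp2l1 -94.4 kb (0.95 and 2.61), +22.9 kb (0.90 and 2.64) and +62.0 kb (3.80 and 7.42), and SOX17 was higher there too, at 0.62 and 2.11, 1.03 and 3.97, and 5.56 and 11.5. SOX17 was higher with Oct4 siRNAs at 82.0% of all regions, with a median log2 ratio of 0.50, and the 47 had a median of 0.47 (0.19 to 0.66), while Esrrb was at -0.04 (-0.70 to 0.58). The difference between the loci was not tested, as the counts are few and neighbouring regions share a gene. Over the whole table the GATA6 value was lower with Oct4 siRNAs at 72.4% of Transient, 54.6% of Early&Constant and 21.3% of Late regions. The loci differ in their shares of these classes, and the part of class in the difference was not tested.

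**Figure D5:**
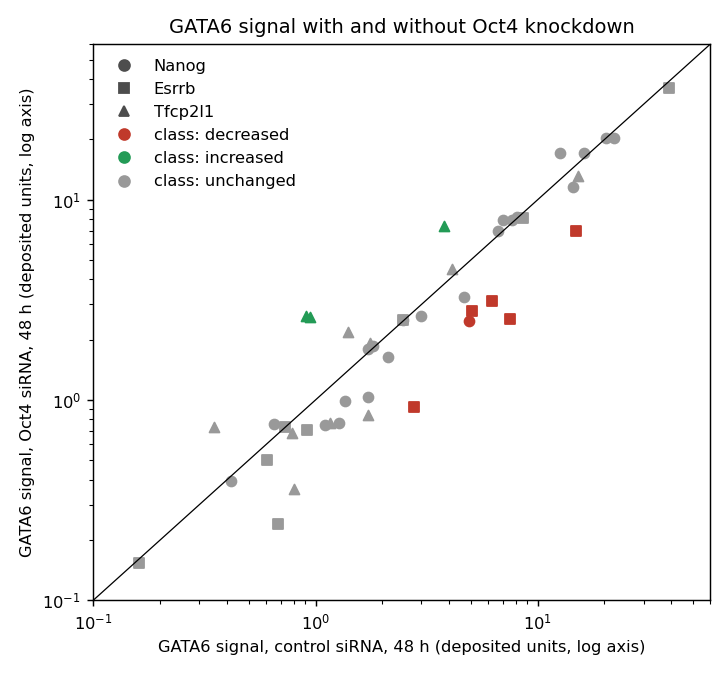
GATA6 signal at 48 h of Dox with control siRNAs (horizontal) and Oct4 siRNAs (vertical), both in deposited units on log axes, with 1 point per region and the line of equal values. The 6 red points lie below the line (5 squares for Esrrb) and the 3 green triangles of Tfcp2l1 above it.

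XEN cells are a separate stem cell line derived from early embryos, and not the end of this Dox course. Their GATA6 signal was below that of 8 h at 37 of 47 regions (78.7%, 64.3 to 89.3), beside 50.8% of all regions, at 13 of 13 in Esrrb, 18 of 22 at Nanog and 6 of 12 at Tfcp2l1. It was below d0 of the ES cells at 14 of 47 (29.8%), beside 21.1% of all regions and 48.2% of all Transient regions. By locus that was 9 of 13 at Esrrb, 3 of 22 at Nanog and 2 of 12 at Tfcp2l1. ATAC in XEN cells was below d0 at 29 of 47 (61.7%, 46.4 to 75.5), beside 33.4%. The highest XEN values of the 47 were in the introns of Slc2a3, with 30.9 at Nanog +74.8 kb and 26.1 at Nanog +65.5 kb. The part of cell line and culture in the differences between XEN and ES cells was not tested.

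Most of these regions held a GATA6 match, in a share close to that of all regions. A GATA6 match was present in 41 of 47 regions (87.2%, 74.3 to 95.2), beside 89.7% of all, and their best score had a median of 10.7 (8.53 to 12.4) beside 10.2 over all regions with a match. The best match contained AGATAA in 20 of the 41 (48.8%, 32.9 to 64.9), beside 59.6%. In windows of 301 bp at the summit, AGATAA or its complement TTATCT was found at 22 of 47 (46.8%, 32.1 to 61.9), beside 58.1% of the same windows at all regions, with the most, 3, at Esrrb +119.7 kb and Nanog +69.9 kb, a number that 3.48% of all windows reached. By class the best GATA6 score had a median of 8.53 (7.62 to 10.7) in the 21 Transient regions with a match and 12.5 (9.36 to 14.0) in the 16 Early&Constant ones, beside 10.2 and 11.2 for these classes. An OCT4:SOX2 match was present in 34 of 47, beside 71.5% of all, and 4 of them scored above 15 besides Nanog +0.0 kb, a limit chosen after the scores were seen, at Esrrb +117.9 kb (15.4), Esrrb +137.9 kb (16.0), Tfcp2l1 +20.3 kb (15.2) and Tfcp2l1 +148.7 kb (15.2). The midpoint of that match was 0 bp from the GATA6 summit at Esrrb +117.9 kb and 2 bp from it at Esrrb +137.9 kb, and these 5 regions all had PTFs from d0. How many of all regions scored above 15, and how many of those had PTFs from d0, was not counted.

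The same window rule was applied to 2 lists of 13 genes each, for naive pluripotency and for primitive endoderm. Among the pluripotency genes, which include Dppa3 and so share regions with the Nanog window, the median share of Transient regions was 62.5%, with a lowest of 23.1%, and the median ATAC log2 ratio of a locus was below 0 at 7 of 13. Among the primitive endoderm genes the share was 15.0% (0.0 to 45.5), and the ATAC median was below 0 at 0 of 13. Tfcp2l1 (41.7%) and Nanog (45.5%) lay within what both lists spanned, Nanog at the upper end of the second, and Esrrb (76.9%) within the first only.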

How the data were processed

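The table analysed lists 42403 GATA6 binding regions in mm10 with 105 columns, of which 90 were used and 15 were not (12 motif groups and 3 XEN signals). Per the study's methods, the authors aligned reads with Bowtie2, called GATA6 peaks (MACS2) after merging replicates and retained only those present in every one. The deposited signal values are reads per region (ATAC, fragments under 100 bp) from pooled replicates, corrected for library size by the authors and not divided by width. The number of replicates differed (GATA6 at d0 had 1 preparation). The header names no unit. The deposited motif score values are FIMO log-odds scores made by the authors. The classes are the authors' own, and the GATA6 classes come from k-means on the GATA6 signal. The siOct4 classes come from the authors' DESeq2 comparison, whose fold changes were not used. None of the used columns holds the 18 MNase libraries, and MNase signal was not analysed here.

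Members were taken by summit within 100 kb of the gene body, and place was read from the GENCODE annotation of GRCm38. Bases came from RefSeq GRCm38, whose sequences matched the motif coordinates. Log2 ratios used a pseudocount equal to the 5th percentile of the positive values of each assay (0.163 for GATA6, 0.178 for OCT4, 0.0208 for ATAC). Shares have 95% exact binomial (Clopper-Pearson) intervals and medians exact order-statistic intervals. They treat regions as separate draws, although neighbours share a locus, and cover counting error only. No read depth is listed. All GATA6 values at d0 were whole multiples of 0.163. The interval code was tested on simulated data. Python 3.11.15, pandas 2.3.3, scipy 1.17.1 and matplotlib 3.10.9 were used.

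For each locus the regions described in full were those nearest to the gene start, with the highest GATA6 signal per kb at 8 and 96 h, the highest OCT4 signal per kb at d0, the highest and lowest ATAC ratio, and the best GATA6 score. Regions behind several counts of 5 or fewer were named too, and any other region named was chosen after its values were seen. The members, windows and gene lists were chosen with earlier results of these data known.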

Additional observations from a re-analysis of the deposited data

How the results depend on the processing

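Over the 3 loci together, windows of 50 or 200 kb, another pseudocount, 16 h as the early time point, regions assigned by nearest gene, and division of GATA6 and OCT4 by input left each share and median within its interval. Only the settings named here moved them. In the 16 regions with a width between the quartiles of all regions, Transient was 81.2% (42.8% of all regions of those widths), Early&Constant 12.5% (24.7%) and SOX17 25% (42.6%), and the median log2 ratios were -1.06 (0.57) for ATAC and -1.11 (0.15) for OCT4. With each column divided by its median the ATAC median was -0.74. With 48 h in place of 96 h, chosen after seeing the data, the medians turned positive, to 0.61 for ATAC (Nanog 0.79, Esrrb 0.44, Tfcp2l1 0.47) and 0.38 for OCT4 (0.48, 0.41 and 0.05). With 200 kb on each side the Tfcp2l1 medians were 0.62 for ATAC and 0.12 for OCT4. The cause was not tested. No paired analysis was possible because the used columns hold 1 pooled value per time point and none of the 18 libraries. For that reason the replicate block and the left-out replicates for MNase signal were not run. With pooled values and no listed depth, small differences between time points cannot be judged.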
